A study of Mus musculus with 17 samples.

Results

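The fibrillar collagen genes Col1a1, Col1a2, Col3a1, Col5a1, Col5a2, Col5a3 and Col11a1 were followed in the mouse heart after myocardial infarction (MI). These 7 genes, chosen by name from the fibril-forming collagen family, are 7 of the 31647 features in the count table. The hearts came from young adult male C57BL/6J mice, all wild type. In 9 mice the left anterior descending coronary artery (LAD) had been ligated permanently and RNA was taken from the dissected infarct zone (IZ). These 9 were drawn at random from a larger group of ligated mice. In 8 mice the same operation was done without ligation and RNA was taken from the left ventricle (sham). All tissue was collected 5 days after surgery, and each library is 1 mouse. The IZ is a dissected region whereas the sham sample is left ventricle, so the comparison sets a region of injury against uninjured ventricle and not against the same region.

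Fibrillar collagens are the rope-like proteins that give the heart wall its tensile strength. Each molecule is a helix of 3 chains, secreted as a procollagen and trimmed outside the cell before it joins a fibril. Type I collagen, built from the products of Col1a1 and Col1a2, is the main collagen of scar and of the cardiac interstitium. Type III collagen, built from the Col3a1 product alone, forms finer and more pliable fibrils beside it. Type V collagen, from Col5a1, Col5a2 and in some tissues Col5a3, sits in the core of type I fibrils and sets where they start and how thick they become. Type XI collagen, to which Col11a1 contributes, does the same for the type II fibrils of cartilage. In the heart these genes are expressed mainly by fibroblasts.

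The 7 genes share an exon design, which is set here beside the exons of all genes. Collagens outside the fibrillar family were not compared. The helical part of a chain is a repeat in which glycine returns at a fixed interval, and it is encoded by many short exons of 54 bases or other multiples of 9 bases. Of the coding exons, 21 of 51 in Col1a1, 24 of 52 in Col1a2, 24 of 51 in Col3a1, 29 of 66 in Col5a1, 24 of 54 in Col5a2, 31 of 67 in Col5a3 and 31 of 67 in Col11a1 are 54 bases long. Over 199146 coding exons of 21901 genes, 0.675% have that length. Exons whose length is a multiple of 9 made up 74.6% (Col5a3) to 88.5% (Col1a2) of the coding exons of these genes, against 14.5% over all genes. A glycine codon (GGN) stood every 9 bases in each of these 54-base exons except 1 of the 24 in Col1a2. The exon of this kind nearest the 5′ end is printed for each gene, read from the GRCm38 transcripts, with the glycine codon at the start of each run of 9 bases in capitals. Other glycine codons are left in lower case.
Col1a1, exon 8, chr11:94939904-94939957, plus strand: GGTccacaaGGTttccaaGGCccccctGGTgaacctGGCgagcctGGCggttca
Col1a2, exon 8, chr6:4515481-4515534, plus strand: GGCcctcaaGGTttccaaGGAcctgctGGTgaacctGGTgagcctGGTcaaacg
Col3a1, exon 6, chr1:45325360-45325413, plus strand: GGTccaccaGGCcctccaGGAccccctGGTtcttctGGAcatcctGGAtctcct
Col5a1, exon 15, chr2:27965251-27965304, plus strand: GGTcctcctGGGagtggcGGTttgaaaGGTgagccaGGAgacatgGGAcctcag
Col5a2, exon 6, chr1:45434892-45434945, minus strand: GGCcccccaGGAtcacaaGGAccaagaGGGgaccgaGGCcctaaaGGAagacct
Col5a3, exon 15, chr9:20801068-20801121, minus strand: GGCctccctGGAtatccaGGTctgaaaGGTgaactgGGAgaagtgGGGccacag
Col11a1, exon 15, chr3:114108281-114108334, plus strand: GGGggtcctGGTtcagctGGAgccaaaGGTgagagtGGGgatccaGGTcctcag

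In the GRCm38 (mm10) annotation Col1a1 (ENSMUSG00000001506) lies at chr11:94936224-94953042 and Col1a2 (ENSMUSG00000029661) at chr6:4504814-4541544, both on the plus strand. Col3a1 (ENSMUSG00000026043) at chr1:45311538-45349706, plus strand, and Col5a2 (ENSMUSG00000026042) at chr1:45374321-45503282, minus strand, are neighbours that point at each other with 24.6 kb between their 3′ ends. Col5a1 (ENSMUSG00000026837) lies at chr2:27886425-28039514 on the plus strand and Col5a3 (ENSMUSG00000004098) at chr9:20770050-20815067 on the minus strand. Col11a1 (ENSMUSG00000027966) lies at chr3:114030540-114220718 on the plus strand. Small overlapping features hold few of the counts. The largest is Gm38211, on the same strand as Col5a2, with 21 to 157 counts in the IZ, at most 4.12% of the Col5a2 count of the same library.

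RefSeq promoter windows of 300 bases (250 before to 50 after the start) were at hand for 5 of the 7 genes, namely Col1a2, Col3a1, Col5a1, Col5a3 and Col11a1. The letters of 5 motifs known from collagen promoters and their signals were sought on both strands. The CCAAT box (CCAAT), which binds the NF-Y factor, stood in 3 of the 5 windows and in 37.4% of 32851 promoters. The GC box (GGGCGG), which binds SP1, stood in 4 of 5 against 35.7%, and the SMAD element (CAGACA) in 3 of 5 against 21.0%. The TATA box (TATAA) and the TEAD element (CATTCC) each stood in 1 of 5, both in Col3a1, against 24.9% and 14.7%. No motif overlapped another except TATAA with itself on the other strand in Col3a1. A match is a match of letters and not a measured binding site. A stretch of 120 bases upstream of the start is printed for 4 genes, with motif letters in capitals (RefSeq, GRCm38.p6). They include Col11a1, with the largest fold of the 7 genes, and Col5a3, with the smallest. The stretch ends next to the start in Col3a1, and 45 (Col5a1), 62 (Col11a1) and 51 (Col5a3) bases from it in the others. Motifs counted above that lie outside the stretch are not printed. That of Col1a2 lies inside the gene as placed above, so Col1a2 was counted but not printed.
Col3a1, chr1:45311418-45311537, plus strand: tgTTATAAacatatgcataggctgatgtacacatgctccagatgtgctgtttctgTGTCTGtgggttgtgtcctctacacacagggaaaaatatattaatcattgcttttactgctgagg
Col5a1, chr2:27886261-27886380, plus strand: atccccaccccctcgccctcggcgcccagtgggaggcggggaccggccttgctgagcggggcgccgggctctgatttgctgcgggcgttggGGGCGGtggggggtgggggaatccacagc
Col11a1, chr3:114030359-114030478, plus strand: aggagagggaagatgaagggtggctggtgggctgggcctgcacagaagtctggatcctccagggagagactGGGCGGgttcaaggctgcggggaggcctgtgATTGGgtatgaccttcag
Col5a3, chr9:20815118-20815237, minus strand: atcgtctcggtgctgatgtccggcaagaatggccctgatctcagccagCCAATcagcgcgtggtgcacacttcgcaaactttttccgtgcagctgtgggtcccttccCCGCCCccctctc

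Transcripts were counted by massive analysis of cDNA ends (MACE), which reads the 3′ end of each polyadenylated transcript, with unique molecular identifiers against PCR duplicates. The sham libraries held 1820809 to 4257919 counts (median 2586348) and the IZ libraries 1237675 to 4738307 (median 2124172). Levels are given as CPM, counts relative to a library size that was scaled by the trimmed mean of M values (TMM). Mitochondrial features took 22.9 to 32.4% of the counts in sham and 4.22 to 19.5% in the IZ, the highest IZ value being that of replicate 1. Cardiomyocyte markers, 8 genes of the contractile apparatus and calcium handling, summed to 66188 to 78665 CPM in sham and to 2799 to 29355 CPM in the IZ, again with replicate 1 highest. IZ replicate 2 was the deepest library, with the highest sums of epicardial markers (125.3 CPM, median of the IZ 16.7, sham 7.73 to 20.2) and adipocyte markers (41.2 CPM, median of the IZ 0.36, sham 0.0 to 6.16). No batch is named in the labels, and none could be used to split the comparison.

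All 7 fibrillar collagen genes were higher in the IZ, with increases from 1.93-fold for Col5a3 to 22.3-fold for Col11a1. With edgeR's quasi-likelihood F-test, adjusted by Benjamini-Hochberg over 12301 genes, 69.5% of genes were called different, 36.3% higher and 33.1% lower, so a call alone sets the collagens little apart. Scaled by total counts alone, 9176 genes were called higher and 1534 lower, the median of all genes moved by 1.08 on the log2 scale, and the 7 collagens had log2 fold changes of 2.01 to 5.57. Of the 7, 6 rose by at least 3 on the log2 scale, which 3.46% of the tested genes did. In the same 6 genes every IZ library lay above every sham library, which held for 16.6% of the tested genes. The median log2 fold change was 3.79 over the 7 genes and 0.05 over all genes tested. In whole tissue, fewer cells of a type and less RNA per cell cannot be told apart, and the same holds for more of either.

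Together the 7 genes took 0.0767 ± 0.0227% of all counts in sham (SD, n = 8, lowest 0.051, highest 0.122) and 2.15 ± 0.532% in the IZ (SD, n = 9, lowest 1.05, highest 2.88). The groups did not overlap. Without mitochondrial features the shares were 0.106 ± 0.0304% and 2.3 ± 0.507%. IZ replicate 1, the library with the most cardiomyocyte and mitochondrial counts, had the lowest share, and IZ replicate 2 the highest. The part of these libraries' makeup in the spread of the collagens was not tested.

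**Figure D1:**
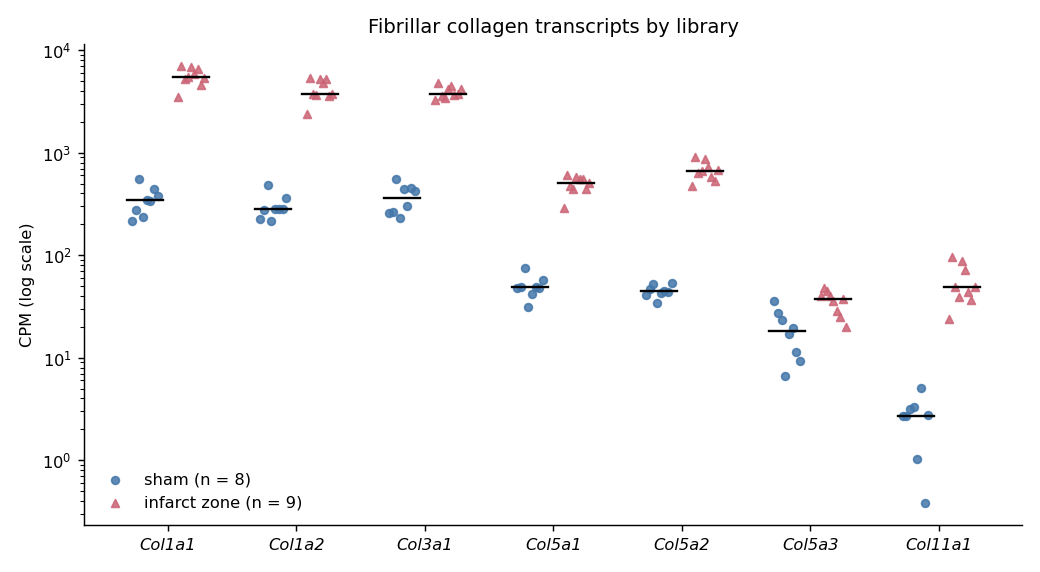
Level of each fibrillar collagen gene in each library, in CPM on a log axis. Each point is 1 mouse (circles, sham, n = 8, and triangles, infarct zone, n = 9) and the bar is the group median. The groups lie apart for every gene except Col5a3, in which 6 of 9 infarct zone libraries lie above all sham libraries.

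Both type I collagen genes rose, and Col1a1 had the highest median level of the 7 genes in the IZ. Col1a1, which encodes the alpha 1 chain, lay at 216.9, 342.7 and 551.4 CPM in sham (lowest, median, highest) and at 3466, 5494 and 7037 CPM in the IZ. The lowest IZ library was thus above the highest sham library. It rose 16.0-fold (95% interval 11.6 to 22.2, log2 fold change 4.0 ± 0.24 SE, edgeR adjusted p = 2.91e-12), higher in 9 of 9 IZ libraries than in any sham library. Col1a2, which encodes the alpha 2 chain, lay at 215.4, 281.4 and 488.6 CPM in sham and at 2381, 3747 and 5355 CPM in the IZ. Its groups did not overlap either. The increase was 13.8-fold (10.2 to 18.9, log2 fold change 3.79 ± 0.23 SE, edgeR adjusted p = 3.07e-12).

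Col3a1, the gene of type III collagen, lay at 228.7, 362.2 and 552.9 CPM in sham and at 3280, 3705 and 4791 CPM in the IZ, with no overlap. It rose 10.7-fold (8.02 to 14.3, log2 fold change 3.42 ± 0.21 SE, edgeR adjusted p = 4.89e-12). Its IZ libraries were the most uniform of the family, with a coefficient of variation of 13.1% against 32.2% in sham. For the other 6 genes that coefficient ran from 19.6 to 44.5% in the IZ.

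The type V genes did not move alike. Col5a1, which encodes the alpha 1 chain, lay at 31.5, 48.5 and 75.3 CPM in sham and at 286.4, 501.7 and 600.8 CPM in the IZ. It rose 9.9-fold (7.82 to 12.5, log2 fold change 3.31 ± 0.17 SE, edgeR adjusted p = 4.8e-13), with no overlap between the groups. Col5a2, which encodes the alpha 2 chain, was the steadiest member in sham, where it lay at 34.2, 44.3 and 53.9 CPM. In the IZ it lay at 472.7, 657.9 and 903.1 CPM, well clear of sham. Its increase was 14.9-fold (12 to 18.6, log2 fold change 3.90 ± 0.16 SE, edgeR adjusted p = 3.53e-14).

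Col5a3, which encodes the alpha 3 chain of type V collagen, differed from the others. It lay at 6.63, 18.3 and 35.8 CPM in sham (12 to 66 counts per library) and at 20.1, 37.3 and 47.8 CPM in the IZ (46 to 347 counts). The groups overlapped. Sham replicate 1, the highest sham library, lay above 3 of the 9 IZ libraries and just below IZ replicate 5 (35.9 CPM). Sham replicates 2 (27.6 CPM) and 3 (23.5 CPM) also lay above the lowest IZ library, replicate 9. Col5a3 rose 1.93-fold (1.37 to 2.71, log2 fold change 0.95 ± 0.25 SE, edgeR adjusted p = 0.00186), with 6 of 9 IZ libraries above all sham libraries. Without sham replicate 1 the log2 fold change was 1.15, and without sham replicate 4, the lowest, it was 0.81, each still past the threshold (edgeR adjusted p = 0.000247 and 0.00459).

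Col11a1, the gene of the alpha 1 chain of type XI collagen, was nearly silent in sham and had the largest fold of the 7 genes. Sham libraries held 1 to 7 counts, or 0.382, 2.73 and 5.1 CPM, close to the floor of 3 counts (on average 1.77 CPM in sham). IZ libraries held 66 to 704 counts, or 23.7, 49.0 and 97.0 CPM, so the groups did not overlap. The increase was 22.3-fold (13.9 to 35.9, log2 fold change 4.48 ± 0.35 SE, edgeR adjusted p = 1.43e-10), and its interval is the widest of the 7 on few sham counts.

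Leaving out either IZ library named above moved these values little. Without IZ replicate 1 the log2 fold changes were 4.03 (Col1a1), 3.83 (Col1a2), 3.41 (Col3a1), 3.35 (Col5a1), 3.92 (Col5a2), 0.90 (Col5a3) and 4.55 (Col11a1). Without IZ replicate 2 they were 3.98, 3.76, 3.40, 3.29, 3.86, 0.90 and 4.34 in the same order. All 7 genes stayed past the threshold in both cases.

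The order of the genes differed between the groups. Per kilobase of transcript the median level in sham was highest for Col3a1 (65.1 CPM per kb), followed by Col1a1 (57.8), Col1a2 (52.6), Col5a2 (6.69), Col5a1 (5.77), Col5a3 (2.99) and Col11a1 (0.356). In the IZ the order per kilobase was Col1a1 (926.4), Col1a2 (700.6), Col3a1 (665.8), Col5a2 (99.3), Col5a1 (59.7), Col11a1 (6.39) and Col5a3 (6.1). MACE counts 1 end per molecule whatever its length, and the order by CPM was the same except that Col5a1 stood above Col5a2 in sham. The ranges in CPM of Col3a1, Col1a1 and Col1a2 overlapped in both groups, as did those of Col5a1 and Col5a2. So did those of Col5a3 with both Col5a1 and Col5a2 in sham and with Col11a1 in the IZ. Those neighbours were therefore not separated by the spread between mice, but within a library some were. By counts, Col1a1 stood above Col1a2 and Col5a2 above Col5a1 in 9 of 9 IZ libraries, and Col5a3 stood below Col5a1 in 8 of 8 sham libraries.

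Of the 4 other fibrillar chains, Col27a1 was on average about as abundant in the IZ as Col5a3 (35.4 ± 9.21 CPM). The rest were lower there. Col27a1, a fibrillar collagen of cartilage, averaged 5.49 ± 2.24 CPM (SD, 8 sham libraries) and 36.2 ± 7.65 CPM (SD, 9 IZ libraries). It rose with no overlap between groups (log2 fold change 2.69 ± 0.20 SE, edgeR adjusted p = 7.95e-11). Col2a1, the type II collagen of cartilage, had no more than 2 counts in a sham library and 7 to 64 in the IZ, at least 4.0-fold higher against the floor averaged over the sham libraries. Col24a1 held at most 1 count in sham and 4 to 50 in the IZ, at least 2.62-fold higher, and the counts of D530037P16Rik, which overlaps it on the same strand, reached 42.9% of its own in 1 library. Col11a2 was too low to test, with 0 to 8 counts per sham library and 0 to 11 per IZ library (2.32 ± 1.5 and 1.01 ± 0.947 CPM). Defining genes of cartilage were checked beside these chains. Of 5 cartilage markers, Sox9, Comp and Acan were called higher, Cilp2 was too low to test, and Chad, at up to 10 counts in sham, was at 0 in every IZ library. The sum of the 5 ran from 10.2 to 21.5 CPM in sham and from 58.9 to 118.7 CPM in the IZ, and its part in the rise of Col11a1 or Col2a1 was not tested.

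**Figure D2:**
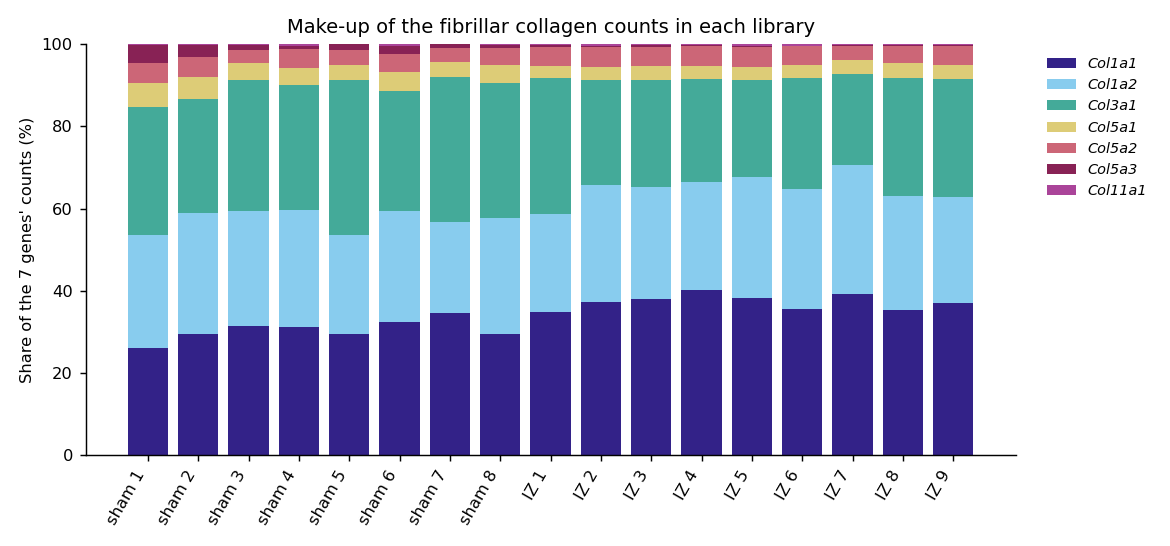
Share of each gene in the summed counts of the 7 genes, in percent, for each library (sham 1 to 8, then infarct zone, IZ, 1 to 9). The band of Col1a1 is wider in the infarct zone (mean 37.3%) than in sham (30.5%) and the band of Col5a3 narrows from 1.8 to 0.247%.

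As a share of the summed counts of the 7 genes, Col1a1 stood higher in the IZ and Col3a1 lower on average. Col1a1 made up 30.5 ± 2.52% in sham (SD, n = 8) and 37.3 ± 1.81% in the IZ (SD, n = 9). Its lowest IZ library, at 34.8%, stood just above its highest sham library, at 34.7%. Col3a1 went the other way, from 32.0 ± 3.25% to 26.6 ± 3.24%, with overlapping ranges. Col1a2 kept a similar share, 26.8 ± 2.54% and 27.7 ± 2.19%. Col5a1 made up 4.49 ± 0.75% and 3.29 ± 0.184%, and Col5a2 4.12 ± 0.706% and 4.5 ± 0.454%. Col5a3 made up 1.8 ± 1.24% in sham, up to 4.32% in sham replicate 1, and 0.247 ± 0.0885% in the IZ. Col11a1 stayed below 1% in all libraries, 0.256 ± 0.161% and 0.357 ± 0.102%. These shares are descriptions, and the test was made on ratios of pairs.

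Ratios of chains within a library do not depend on how libraries are scaled. Of 7 pairs set, 6 had enough counts and were compared between the groups by an exact two-sided permutation test over all 24310 splits, with p-values adjusted over the 6. All 6 differed between sham and IZ.

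The ratio of Col3a1 to Col1a1 had a median of 1.01 in sham (0.905 to 1.28) and 0.682 in the IZ (0.562 to 0.946). The mean log2 ratio was 0.56 lower in the IZ (exact permutation adjusted p = 0.000309), and 8 of 9 IZ libraries lay below all sham libraries. The exception was IZ replicate 1, at 0.946. So Col3a1 rose less than Col1a1, and its ratio to Col1a2 was not tested. The ratio of Col1a1 to Col1a2 had a median of 1.11 in sham (0.957 to 1.57) and 1.31 in the IZ (1.23 to 1.52), a log2 difference of 0.24 (exact permutation adjusted p = 0.0129). No IZ library lay beyond the sham range for this pair, but the upper end of that range was sham replicate 7 alone. The other sham libraries lay at 0.957 to 1.24, and only IZ replicate 6, at 1.23, fell among them.

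The ratio of Col5a1 to Col1a1 had a median of 0.142 in sham (0.107 to 0.224) and 0.0854 in the IZ (0.0809 to 0.0979). It was lower in 9 of 9 IZ libraries than in any sham library, by 0.74 on the log2 scale (exact permutation adjusted p = 0.000123, the unadjusted p of 4.11e-05 being the smallest the test can give). Col5a2, the other main type V gene, rose 14.9-fold against 16.0-fold for Col1a1, and its ratio to Col1a1 was not tested. Within type V, Col5a2 transcripts gained on those of Col5a1. Col5a2 per Col5a1 had a median of 0.936 in sham (0.701 to 1.09) and 1.35 in the IZ (1.03 to 1.65), a log2 difference of 0.57 (exact permutation adjusted p = 0.000247), with 8 of 9 IZ libraries above all sham libraries. Transcripts of Col5a3 lost ground to those of Col5a1. Col5a3 per Col5a1 had a median of 0.362 in sham (0.173 to 0.744) and 0.0798 in the IZ (0.0407 to 0.14), 4.87-fold lower on average, with no overlap (exact permutation adjusted p = 0.000123).

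The neighbours on chromosome 1, Col5a2 and Col3a1, did not keep their ratio either. Col5a2 per Col3a1 had a median of 0.14 in sham (0.0963 to 0.179) and 0.163 in the IZ (0.144 to 0.205), a log2 difference of 0.39 (exact permutation adjusted p = 0.0129). That call was lost when the median was tested in place of the mean (0.23, exact permutation adjusted p = 0.0664) and when all libraries were thinned to the smallest total (0.32, exact permutation adjusted p = 0.0568). Col11a1 per Col5a1 was not tested because Col11a1 had fewer than 10 counts in every sham library. Its median was 0.062 in sham (0.0159 to 0.121) and 0.0993 in the IZ (0.079 to 0.162), with 3 of 9 IZ libraries above the sham range.

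**Figure D3:**
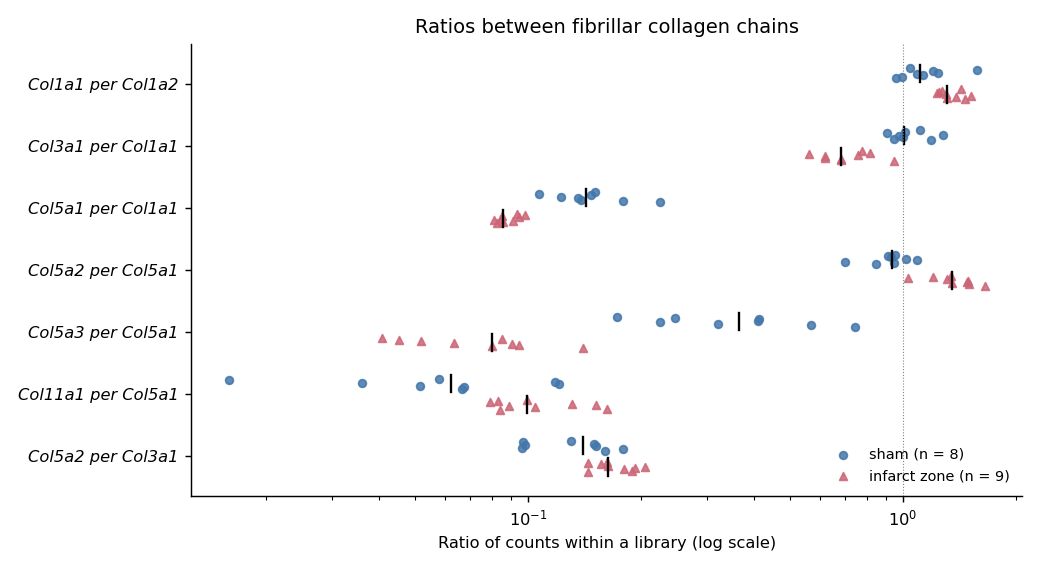
Ratio of counts of 7 chain pairs within each library, on a log axis. Circles are sham (n = 8), triangles infarct zone (n = 9) and bars group medians. Col5a1 per Col1a1 and Col5a3 per Col5a1 show no overlap between the groups. For Col1a1 per Col1a2 the infarct zone lies within the sham range, whose upper end is sham replicate 7 alone.

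Within each group the levels of the type I genes were correlated from mouse to mouse, whereas a relation of Col5a3 with Col5a1 did not pass the test. Correlations of log2 CPM were computed for 6 pairs in sham and in the IZ separately, 12 relations in all, with exact permutation of the pairings and adjustment over the 12. All values of a library share its scaling factor. In sham, Col1a1 and Col1a2 had r = 0.87 (exact permutation p = 0.00355, adjusted p = 0.0102) and rho = 0.93 (exact permutation p = 0.00223, adjusted p = 0.0067). Col3a1 and Col1a1 had r = 0.93 (exact permutation p = 0.000446, adjusted p = 0.00179) and rho = 0.95 (exact permutation p = 0.00114, adjusted p = 0.00456). With the 2 libraries farthest from the median left out, r was 0.69 for the first pair, which no longer passed the test, and 0.92 for the second. The first pair also lost the threshold without sham replicate 3 alone (r = 0.77, exact permutation adjusted p = 0.0554). Col5a2 and Col5a1 had r = 0.90 (exact permutation p = 0.00511, adjusted p = 0.0102) and rho = 0.90 (exact permutation p = 0.00456, adjusted p = 0.011), and r = 0.78 without those 2 libraries, past no threshold there. The 2 remaining pairs of main chains did not pass the test in sham. Col5a1 and Col1a1 had r = 0.70 (exact permutation p = 0.0507, adjusted p = 0.0677) and rho = 0.45 (exact permutation p = 0.267, adjusted p = 0.321), with r = 0.67 without the 2 farthest libraries, and it passed without sham replicate 1 (r = 0.83, exact permutation adjusted p = 0.0408). Col5a2 and Col3a1 had r = 0.68 (exact permutation p = 0.0633, adjusted p = 0.076) and rho = 0.55 (exact permutation p = 0.171, adjusted p = 0.228), with r = 0.28 without them.

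In the IZ the type I pair and Col5a1 with Col1a1 were the tightest relations. Col1a1 and Col1a2 had r = 0.97 (exact permutation p = 6.34e-05, adjusted p = 0.000678) and rho = 0.93 (exact permutation p = 0.00075, adjusted p = 0.0045), with r = 0.90 without the 2 farthest libraries. Col5a1 and Col1a1 had r = 0.96 (exact permutation p = 0.000113, adjusted p = 0.000678) and rho = 0.95 (exact permutation p = 0.000353, adjusted p = 0.00423), with r = 0.87 without them. The other IZ relations rested on few libraries. Col3a1 and Col1a1 had r = 0.69 (exact permutation p = 0.0328, adjusted p = 0.0491) and rho = 0.70 (exact permutation p = 0.0433, adjusted p = 0.0649), and r = 0.36 without the 2 farthest. Col5a2 and Col5a1 had r = 0.79 (exact permutation p = 0.00496, adjusted p = 0.0102) and rho = 0.82 (exact permutation p = 0.0108, adjusted p = 0.0185), and r = 0.58 without them. Col5a2 and Col3a1 had r = 0.82 (exact permutation p = 0.00706, adjusted p = 0.0121) and rho = 0.82 (exact permutation p = 0.0108, adjusted p = 0.0185), and r = 0.72 without them. These 3 relations lost the threshold without IZ replicate 1 (r = 0.57, 0.71 and 0.75) and without IZ replicate 2 (r = 0.60, 0.77 and 0.73). That of Col3a1 with Col1a1 lost it without any of IZ replicates 3, 5, 6, 8 and 9 as well (r = 0.67 to 0.72).

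Col5a3 stood outside this pattern. In sham it had r = 0.47 with Col5a1 (exact permutation p = 0.242, adjusted p = 0.264) and rho = 0.40 (exact permutation p = 0.327, adjusted p = 0.357), with r = -0.34 without the 2 farthest libraries. In the IZ it had r = -0.22 (exact permutation p = 0.567, adjusted p = 0.567) and rho = -0.10 (exact permutation p = 0.81, adjusted p = 0.81), with r = -0.47 without them. No relation between Col5a3 and Col5a1 was detectable at this number of mice. As a description over all 17 libraries after removal of the group means, Col5a3 correlated with the other 6 genes at -0.10 to 0.22. Col11a1 correlated at -0.12 to 0.52 with the others and the remaining 5 genes at 0.60 to 0.93 among themselves.

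**Figure D4:**
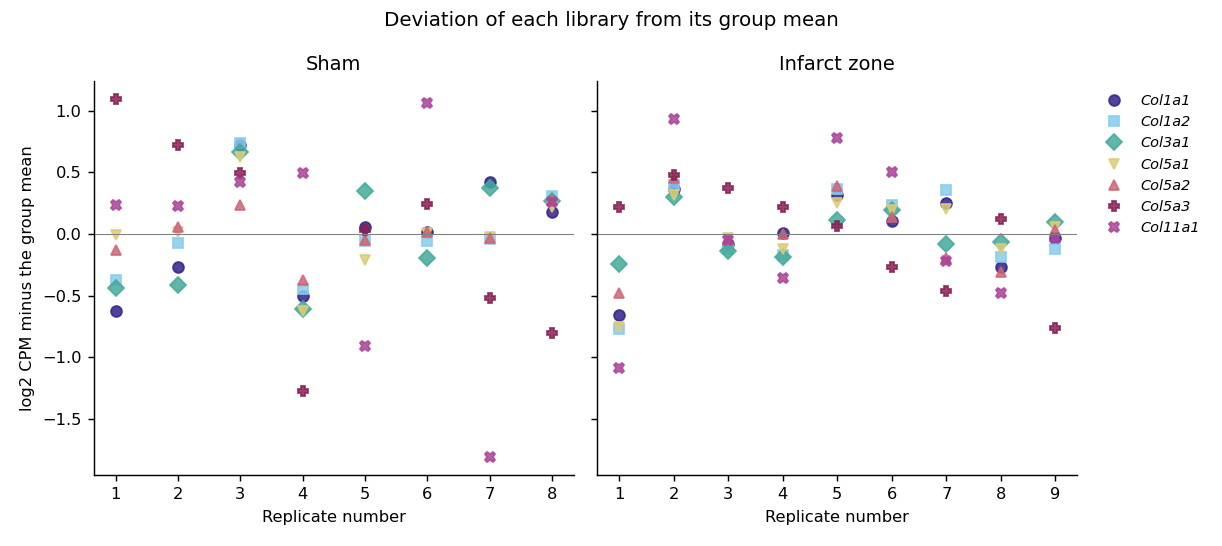
Deviation of each gene from its group mean in log2 CPM, by replicate number, in sham and in the infarct zone. Each symbol is 1 gene. Infarct zone replicate 1 lies lowest for 6 of the 7 genes and replicate 2 highest for all 7, and sham replicate 3 highest for 4 of the 7.

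Genes whose deviations were most like those of the summed collagens were sought among the 9290 genes that averaged 10 CPM or more, over 17 libraries and with no test. Rcn3, a calcium-binding protein of the endoplasmic reticulum, came first (r = 0.91), followed by Dap (0.88), C1rb (0.86), Twist1 (0.85), Gm10343 (0.84), Fn1 (0.82), Rp2 (0.80), Galnt10 (0.80) and Fstl3 (0.79). Twist1 is a transcription factor of mesenchymal cells, and Fn1 encodes fibronectin, a matrix protein on which collagen fibrils assemble. The 5 main genes shared their nearest genes in part. Rcn3 was nearest to Col1a1 (0.91) and Col3a1 (0.86), and Fn1 to Col1a2 (0.90) and Col5a1 (0.91). The second nearest were Gm10343 for Col1a1 (0.84), Tm7sf3 for Col3a1 (0.84), Twist1 for Col1a2 (0.88) and Lox for Col5a1 (0.91). Lox encodes lysyl oxidase, which crosslinks collagen. Dap (0.83) and Lox (0.78) were nearest to Col5a2. The nearest genes of Col5a3, Crebbp (0.84) and Aqr (0.81), and of Col11a1, Tmf1 (0.81) and Fads3 (0.78), were others. Of these, Crebbp, Aqr and Tmf1 did not pass the test between sham and IZ, with log2 fold changes of -0.23, 0.13 and -0.07. Nor did Gm10343, near Col1a1 and the summed collagens (log2 fold change 0.22, edgeR adjusted p = 0.159).

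The genes that make, trim, crosslink, bind and degrade fibrillar collagen moved mostly in the same direction as the chains. Over 6 lists and the 4 other fibrillar chains, 80 genes in all, 69 were tested, of which 60 were called higher and 2 lower. Of all 12301 genes tested, 36.3% were called higher and 33.1% lower, and the calls within each list below stand beside those shares. Over 26 alternative settings the list genes called higher numbered 51 to 67 and those called lower 0 to 3. The lists were chosen for what their genes do and not for how they moved, but with results of these data known.

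**Figure D5:**
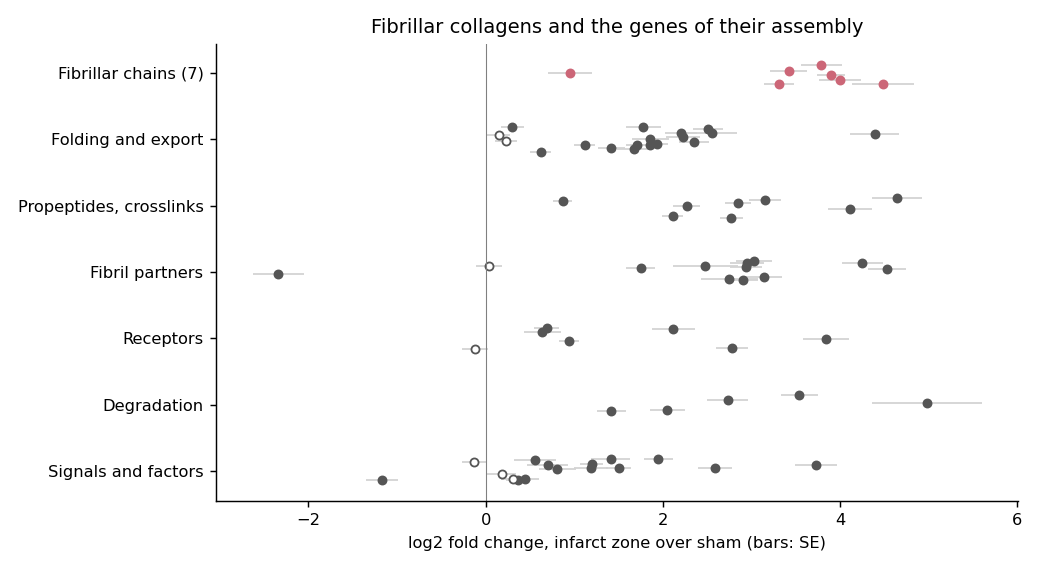
Log2 fold change, infarct zone over sham, of the 7 fibrillar collagen genes (top row) and of the tested genes in 6 lists of collagen assembly, one point per gene with its standard error. Filled points passed edgeR's test and open points did not. Mmp8, the highest point of the degradation row, has a fitted value that rests on sham libraries near 0.

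Of 20 genes for hydroxylation, folding and export of the chains, 18 were tested and 16 were called higher, with a median log2 fold change of 1.82. The highest was P4ha3, a subunit of prolyl 4-hydroxylase, at 2.34 ± 1.61 CPM in sham and 48.7 ± 11.5 CPM in the IZ (log2 fold change 4.39 ± 0.28 SE, edgeR adjusted p = 7.25e-12). Serpinh1, the collagen chaperone HSP47, named for its role after its values were seen, went from 201.5 ± 32.4 to 1147 ± 269.5 CPM (log2 fold change 2.51 ± 0.17 SE). The lowest called was P3h4 (log2 fold change 0.30 ± 0.13 SE, edgeR adjusted p = 0.0486), whose call was lost in 14 of 26 alternative settings. P4ha2 (0.15 ± 0.13 SE) and Mia3 (0.23 ± 0.12 SE) did not pass the test but were called higher under total counts alone (1.24 and 1.31), Mia3 in 3 other settings too, and P3h2 and Colgalt2 were too low to test.

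All 8 tested genes of propeptide removal and crosslinking were called higher, with a median log2 fold change of 2.81. Lox went from 27.2 ± 8.7 CPM to 672.7 ± 258.9 CPM (log2 fold change 4.64 ± 0.28 SE, edgeR adjusted p = 2.66e-12), the highest of the list. The lowest was Pcolce2, an enhancer of C-propeptide cleavage (log2 fold change 0.87 ± 0.11 SE, edgeR adjusted p = 3e-07). Adamts3, Adamts14, Tll1, Tll2 and Loxl4 were too low to test.

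Of 12 proteins that bind collagen fibrils, 10 were called higher and 1 lower, with a median of 2.92. Col12a1, a collagen that decorates fibrils, went from 4.22 ± 1.12 to 96.3 ± 25.5 CPM (log2 fold change 4.53 ± 0.22 SE, edgeR adjusted p = 2.05e-13). Tnxb, which encodes tenascin X, fell from 32.5 ± 13.6 to 6.41 ± 3.63 CPM (log2 fold change -2.34 ± 0.29 SE, edgeR adjusted p = 1.65e-07), with 9 of 9 IZ libraries below all sham libraries. Decorin, Dcn, was abundant and did not pass the test, at 856.0 ± 145.0 CPM in sham and 877.4 ± 153.8 CPM in the IZ (log2 fold change 0.04 ± 0.15 SE). Under total counts alone it was called higher (1.10, edgeR adjusted p = 1.54e-07).

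Among 9 cell receptors of fibrillar collagen, 7 were tested and 6 were called higher, with a median of 0.94. Lair1, an inhibitory collagen receptor of leukocytes, was the highest (2.88 ± 1.33 to 39.7 ± 11.3 CPM, log2 fold change 3.84 ± 0.26 SE, edgeR adjusted p = 1.97e-11). The lowest called was Ddr1, a receptor tyrosine kinase (0.64 ± 0.21 SE, edgeR adjusted p = 0.00924), whose call was lost when libraries were thinned (0.47, edgeR adjusted p = 0.112). Itga1, the alpha 1 integrin, did not pass the test (log2 fold change -0.12 ± 0.15 SE, and 0.94 when libraries were scaled by total counts alone), and Itga2 and Itga10 were too low to test. All 5 tested genes of collagen degradation were called higher, with a median of 2.73, or 2.16 with Mmp8 at its lower bound. Mmp8, the neutrophil collagenase, had no more than 2 counts in sham and up to 61 in the IZ, at least 4.48-fold higher on average. It lay above all sham libraries in 8 of 9 IZ libraries. The lowest was the gelatinase Mmp2 (log2 fold change 1.42 ± 0.16 SE, edgeR adjusted p = 5.55e-08), and Mmp13 was too low to test.

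Of 16 signals and factors that act on collagen genes, 12 were called higher and 1 lower, with a median of 0.75. Runx1, a transcription factor, was the highest (4.03 ± 2.65 to 52.0 ± 11 CPM, log2 fold change 3.73 ± 0.24 SE, edgeR adjusted p = 9.89e-12). Nfyc, a subunit of the CCAAT-binding factor NF-Y, was called lower (log2 fold change -1.17 ± 0.18 SE, edgeR adjusted p = 3.08e-06), a call lost under total counts alone (-0.11, edgeR adjusted p = 0.566). The other subunits, Nfya (1.19 ± 0.19 SE) and Nfyb (0.45 ± 0.15 SE), were called higher. Nfyb lost its call when libraries were thinned (0.33, edgeR adjusted p = 0.179). Among the 12, Smad3 (0.56 ± 0.24 SE, edgeR adjusted p = 0.0432) lost its call in 11 of 25 alternative settings and Sp1 (0.37 ± 0.14 SE, edgeR adjusted p = 0.0259) in 6 of 26. Smad4, Smad7 and Cebpb did not pass the test (0.31 ± 0.14, -0.13 ± 0.14 and 0.18 ± 0.16 SE), and under total counts alone all 3 were called higher (1.38, 0.94 and 1.26), Smad4 in 10 of 26 settings in all. Genes that missed the test or lost their call were named after their values were seen.

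Markers of the cells that could carry these transcripts were read beside them. Of 6 fibroblast markers, 4 were called higher, Scara5 was called lower (log2 fold change -3.00 ± 0.34 SE) and Pi16 did not pass the test. Their sum ran from 233.1 to 352.9 CPM in sham and from 567.9 to 1039 CPM in the IZ. All 6 myofibroblast markers were called higher, and their sum ran from 206.0 to 433.7 CPM in sham and from 2420 to 4539 CPM in the IZ. Per count of the fibroblast markers, the 7 collagens gave 2.68 to 5.53 counts in sham (median 3.48) and 13.8 to 24.1 in the IZ (median 18.4), with no overlap. Per count of the myofibroblast markers they gave 3.04 to 4.2 in sham (median 3.67) and 3.32 to 6.87 in the IZ (median 4.64), with overlapping ranges. The ratio to the fibroblast markers thus separated the groups, and the ratio to the myofibroblast markers did so only in part. The IZ median of the latter, 4.64, lay above its highest sham value, 4.2. Both lists hold matrix genes themselves, such as Dpt and Mfap5 among the fibroblast markers and Postn, Tnc and Ltbp2 among the myofibroblast markers. Of the myofibroblast markers, Postn weighed most in the IZ, averaging 129.4 CPM in sham and 1995.5 CPM in the IZ. Acta2, the next highest there, averaged 135.3 and 660.1 CPM. Neither ratio was tested.

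Other cell types moved in their own ways. All 6 macrophage markers were called higher, with sums of 165.3 to 220.4 CPM in sham and 1019 to 1959 CPM in the IZ. All 8 cardiomyocyte markers were called lower. Endothelial markers (0 of 5 higher, 2 lower), pericyte markers (0 of 5 higher, 3 lower) and smooth muscle markers (1 of 4 higher, 2 lower) did not follow the collagens. Of the epicardial markers 2 of 5 were tested and 1 was called higher, the 1 tested of 4 Schwann cell markers was called lower, and none of 3 adipocyte markers was high enough to test. The part of these shifts in the collagen levels was not tested.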

How the data were processed

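Libraries were made by the authors from total RNA after DNase treatment, as 3′ end (MACE) libraries with unique molecular identifiers. Reads were trimmed with Cutadapt, aligned to mm10 and assigned to genes by HTSeq. The submitters' processing notes also name bcl2fastq, Bowtie2 and DESeq2. The annotation release, the strand setting and the treatment of multi-mapped reads are not given in the sources used here. The deposited values are raw counts per gene, with no normalization, in 1 table of 17 libraries. Of its 31647 features, 35 were merged groups of overlapping genes, which counted toward library size and entered the fit unnamed. Gene names, positions and exons came from GENCODE M21 (GRCm38), in which 31521 identifiers matched. Exon values refer to 1 transcript per gene, the one with the longest coding sequence.

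Libraries were grouped by the treatment in the labels, sham (n = 8) and infarct zone (n = 9). No pair of libraries was a copy, since all 136 pairs differed by 2.56 to 281 times sampling variance (chi-square per degree of freedom). The test across genes, in edgeR 4.0.16 (R 4.3.3), was the two-sided quasi-likelihood F-test without covariates, after filterByExpr (minimum 10 counts) and TMM scaling (factors 0.616 to 1.53). The p-values were adjusted by Benjamini-Hochberg over the 12301 genes tested, with a threshold of 0.05, and standard errors were derived from the F statistic. The biological coefficient of variation had a median of 0.204 over genes. Where no library of a group exceeded 3 counts, the change of the gene is a lower bound, computed against a floor of 3 counts per library averaged over the group. Log2 CPM values and log2 ratios used a prior count of 1. Ratios and correlations were tested by exact permutation in SciPy 1.17.1 (Python 3.11.15, NumPy 2.4.6, pandas 2.3.3), correlations over the 40320 pairings of 8 and 362880 of 9. Floors cover counting error only. Plots were drawn with Matplotlib 3.10.9. The test across genes was also run on simulated counts, where 85.5% of the changed genes were called and 7.27% of calls were false. Only 179 of 11562 genes were changed there, far fewer than differ in the data. The simulation therefore does not check the scaling when most genes differ.

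The genes named are the 7 collagens and 4 other fibrillar chains, the highest and lowest called gene of each list, and the genes nearest in deviation to the 7 (the best 10 for their sum and the best 2 for each). Of these, 1 gene is not reported here. The members and all lists were chosen with earlier results of these data known. Alternatives were DESeq2 size factors, upper quartile and total counts within edgeR, scaling without the collagens and mitochondrial features, the DESeq2 1.42.0 Wald test, no filter on low counts, a mean of 50 counts as the minimum, libraries thinned to the smallest total, the replicate number as a block, a prior count of 5, a test of the median, and leaving out each library. The sham libraries are the only controls.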

Additional observations from a re-analysis of the deposited data

Results flagged for a closer look

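Of 30 sets of values (each gene and each ratio in each group), 2 held a library far from the others by Dixon's criterion, which chance alone meets in about 1 set in 20. Sham replicate 7 had 1.57 Col1a1 counts per Col1a2 count, where the other sham libraries had 0.957 to 1.24. In the IZ, replicate 1 had 286.4 CPM of Col5a1, where the others had 444.0 to 600.8, and the same library had the most cardiomyocyte and mitochondrial counts of the IZ group. The part of that makeup in its Col5a1 level was not tested.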

How the results depend on the processing

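All 7 collagens were called higher under each of the 26 alternatives, with 3.92 to 5.10 (Col1a1), 3.72 to 4.88 (Col1a2), 3.33 to 4.50 (Col3a1), 3.22 to 4.4 (Col5a1), 3.84 to 4.99 (Col5a2), 0.81 to 2.01 (Col5a3) and 4.24 to 5.57 (Col11a1) on the log2 scale. The highest values came from total counts alone, which moved the median of all genes by 1.08 (upper quartile scaling moved it by 0.11). Under total counts alone 9176 genes were called higher, 1534 lower and 1 list gene lower, Itga1 and Smad7 turned to 0.94 each, and Dcn, P4ha2, Mia3, Smad4 and Cebpb gained a call (1.10 to 1.38). With a minimum mean of 50 counts, where fewer genes are tested, 5239 were called, 2747 higher and 2492 lower, and 0 list genes lower. Dcn turned to -0.02 without sham replicate 1, -0.00 without sham replicate 8 and -0.05 without IZ replicate 1.

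The ratio difference of Col11a1 per Col5a1, 0.89, was 0.10 with a prior count of 5 and 0.43 when thinned, since few sham counts lie behind it. That of Col5a2 per Col3a1 was 0.23 for the median and 0.32 when thinned, both past no threshold. The correlation of Col5a3 with Col5a1 turned to 0.19 in the IZ under total count CPM and to -0.34 in sham without the 2 farthest libraries. The collagens' share of sham counts was 0.106% without mitochondrial features. Leaving out each library in turn gave 7962 to 8614 genes called, and for Col11a1 per Col5a1 a difference of 0.63 to 1.05. Where not explained above, the cause of a change was not tested.

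Replicate numbers did not pair the samples, which are different mice. Same-numbered deviations correlated at -0.216 to 0.128. With the number as a block, 8078 genes were called and the 7 collagens stayed called, Col5a3 at 1.08. Of the 10 genes nearest to the summed collagens, 6 remained among the nearest 10 without sham replicate 1 or without sham replicate 7. Counts per sham library of 1 to 7 limit Col11a1, and of 12 to 66 Col5a3.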
